A study of Mus musculus with 30 samples.

Results

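The interferon response and antigen presentation genes described here are 46 genes, chosen by symbol from the 39017 rows of the series' table of raw read counts. They comprise transcription factors of the interferon pathway, sensors of foreign RNA and DNA, antiviral effectors, the ISG15 conjugation system, interferon-inducible PARP proteins and the peptide supply of MHC class I. They were followed in βTC3 cells, a mouse insulinoma line of pancreatic beta cell origin, by sequencing of poly(A) RNA. Of the 46 genes, 44 had enough reads to be tested.

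All 5 lines, controls included, received doxycycline (DOX), the drug that switches on their constructs, at 1 µg/ml for 24 h. Control cells carried the plasmid PB-33, and cells labelled ALK7 or ALK7-DN carried PB-33 with ALK7, an activin type I receptor, or with its dominant-negative form. Cells labelled sh2 and sh1/2 carried PB-31 with hairpin constructs against ALK7, sh2 and sh1/2, which are made as short hairpin RNAs. Each line was sequenced with DOX alone and with DOX and activin B (50 ng/ml, 24 h), giving 10 groups of 3 libraries from cells plated in triplicate in 6-well plates. No line with PB-31 and no hairpin was analysed here, so plasmid and hairpin cannot be told apart in a comparison of a hairpin line with control cells. Nothing in the labels says that the wells came from separate cultures or clones, so p-values measure only the spread between these wells, which may be technical. By the labels, 6 libraries are of batch 2, namely those of sh2 cells without activin B and of cells labelled ALK7-DN with it, and the other 24 are of batch 1.

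Interferons act through cell surface receptors and JAK kinases on transcription factors. A complex that holds STAT2 and IRF9 binds the interferon-stimulated response element (ISRE), and interferon gamma acts through the gamma-activated site (GAS). Double-stranded RNA in the cytoplasm is sensed by RIG-I and MDA5 and activates the kinase PKR, so interferon response genes are a common check in cells that express hairpin RNA. In beta cells, MHC class I and its peptide supply are known for their role in autoimmune diabetes.

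Promoters are shown for some of the members discussed below, chosen because they differ in the elements they hold. Each is 300 bases of GRCm38.p6, from 250 bases before to 50 after the annotated start, read 5′ to 3′ on the gene's strand. Capitals mark each match, on either strand, to the ISRE letters, TTTC and again TTTC with NN between them, or the GAS letters TTCNNNGAA. Rsad2 (chr12:26456403-26456702, minus strand), Ifit3 (chr19:34583279-34583578, plus strand), Isg15 (chr4:156200769-156201068, minus strand), Ddx58 (chr4:40239776-40240075, minus strand) and B2m (chr2:122147437-122147736, plus strand) hold the ISRE letters. Irf1 (chr11:53769764-53770063, plus strand) holds the GAS letters, and Cmpk2 (chr12:26468965-26469264, plus strand) holds neither.
Rsad2: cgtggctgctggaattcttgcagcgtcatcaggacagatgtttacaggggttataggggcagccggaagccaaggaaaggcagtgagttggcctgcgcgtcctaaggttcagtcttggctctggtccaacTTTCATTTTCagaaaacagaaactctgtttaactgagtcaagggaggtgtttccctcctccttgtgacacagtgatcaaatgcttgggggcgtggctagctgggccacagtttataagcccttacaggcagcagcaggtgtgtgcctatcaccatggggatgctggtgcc
Ifit3: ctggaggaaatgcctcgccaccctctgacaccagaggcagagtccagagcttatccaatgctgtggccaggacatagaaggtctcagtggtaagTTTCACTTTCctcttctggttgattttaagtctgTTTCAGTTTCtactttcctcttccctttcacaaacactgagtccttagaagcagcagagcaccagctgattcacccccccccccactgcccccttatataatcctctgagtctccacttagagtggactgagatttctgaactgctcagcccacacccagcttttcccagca
Isg15: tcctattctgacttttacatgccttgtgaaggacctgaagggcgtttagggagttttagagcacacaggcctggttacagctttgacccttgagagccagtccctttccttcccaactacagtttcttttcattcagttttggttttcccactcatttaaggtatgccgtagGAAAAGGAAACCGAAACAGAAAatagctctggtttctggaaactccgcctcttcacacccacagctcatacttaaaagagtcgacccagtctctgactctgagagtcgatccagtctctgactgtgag
Ddx58: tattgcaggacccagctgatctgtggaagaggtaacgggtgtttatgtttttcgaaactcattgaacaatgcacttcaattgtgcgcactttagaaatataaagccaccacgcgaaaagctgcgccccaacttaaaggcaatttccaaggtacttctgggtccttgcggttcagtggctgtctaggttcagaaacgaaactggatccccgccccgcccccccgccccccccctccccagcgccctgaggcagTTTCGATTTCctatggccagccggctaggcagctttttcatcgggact
B2m: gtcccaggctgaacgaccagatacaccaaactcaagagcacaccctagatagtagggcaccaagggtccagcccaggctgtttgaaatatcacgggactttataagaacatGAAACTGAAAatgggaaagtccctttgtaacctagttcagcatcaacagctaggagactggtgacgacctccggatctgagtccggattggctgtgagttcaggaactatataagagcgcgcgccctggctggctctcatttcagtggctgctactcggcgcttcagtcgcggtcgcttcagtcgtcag
Irf1: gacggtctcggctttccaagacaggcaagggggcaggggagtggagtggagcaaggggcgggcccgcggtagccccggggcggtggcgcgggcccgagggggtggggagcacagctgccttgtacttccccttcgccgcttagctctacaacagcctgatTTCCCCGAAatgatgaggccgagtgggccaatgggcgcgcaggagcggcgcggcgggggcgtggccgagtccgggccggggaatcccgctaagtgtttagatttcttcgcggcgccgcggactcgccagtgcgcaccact
Cmpk2: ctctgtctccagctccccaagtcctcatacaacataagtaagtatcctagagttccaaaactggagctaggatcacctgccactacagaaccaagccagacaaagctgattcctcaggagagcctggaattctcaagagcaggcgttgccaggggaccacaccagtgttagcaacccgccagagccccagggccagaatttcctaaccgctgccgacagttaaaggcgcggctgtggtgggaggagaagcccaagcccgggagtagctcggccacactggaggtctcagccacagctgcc
The Rsad2 match begins 120 bases before the start, those of Ifit3 156 and 122 bases before it and that of B2m 139 bases before it, while that of Ddx58 lies just after it. Isg15 has 3 matches that overlap each other, beginning 78, 72 and 66 bases before the start. The Irf1 match begins 90 bases before the start. Of the 46 members, 37 had a promoter in the RefSeq table. Those not shown include Herc6, Oasl2 and Tap1, with neither set of letters, and Stat2, with the ISRE letters. The ISRE letters were in 12 of these 37 (32.4%), against 3.99% of 27025 mouse genes with a promoter there, and the GAS letters in 8 (21.6%), against 9.55%. A match is a description of the letters and not a measured binding site.

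Library totals ran from 18904884 to 34740789 counts, and fold changes and adjusted p-values come from edgeR's quasi-likelihood test with Benjamini-Hochberg adjustment over 15627 genes (threshold 0.05). Expression is given as CPM, the counts of a gene scaled to the size of its library. With DOX alone, the mean level of Acvr1c, the gene of ALK7, was 165 ± 6.34 CPM (± SD, n = 3) for control, 68.5 ± 12.8 for sh2 and 55.3 ± 8.0 for sh1/2. It was not raised in cells labelled ALK7 (154 ± 11 CPM) or ALK7-DN (161 ± 7.5 CPM), so these lines are called by their labels. The 12 beta cell markers summed to between 11891 and 22922 CPM in every library. Of 14 immune cell markers, 12 were under 1 CPM in every library and Ncr1 was at 0; the exceptions were Cd68 (1.49 to 3.74 CPM) and Siglech (13.9 to 85.9 CPM). In 3 libraries, sh1/2 with DOX alone replicates 1 and 3 and control with activin B replicate 2, the deviation of log2 CPM from the mean of all 30 libraries fell with the GC content of genes (Spearman -0.49, -0.53 and -0.57 across genes). In the other 27 libraries this coefficient ran from -0.31 to 0.41. These 3 are called the GC-shifted libraries below, and member results that rest on them are in most cases given without them too. Leaving them out keeps a single sh1/2 library with DOX alone.

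The members' levels in these cells, to which no interferon was added, spanned a wide range. On a scale per exon length (RPKM, which is CPM per kilobase of exon, averaged over all libraries), B2m, the light chain of MHC class I, led with 103, followed by Lgals3bp with 48.2, Ifi35 with 22.1, Irf1 with 18.7, and Usp18 and Parp12 with 15.6 each. At the other end stood Zbp1, a sensor of Z-form nucleic acids, with 0.106. Ifi44 had 34 reads in all 30 libraries together and Trim30a had 4, and neither was tested. Zbp1 was tested on 3 to 20 reads per library, which leaves its fold changes wide. The interferon genes themselves were nearly silent: Ifnb1, Ifna1, Ifna4, Ifnl2 and Ifnl3 had 0 reads in every library, Ifna2 had 1 read and Ifng 6 reads over all libraries. In bulk RNA, fewer cells expressing a gene and less RNA per cell cannot be told apart.

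**Figure D1:**
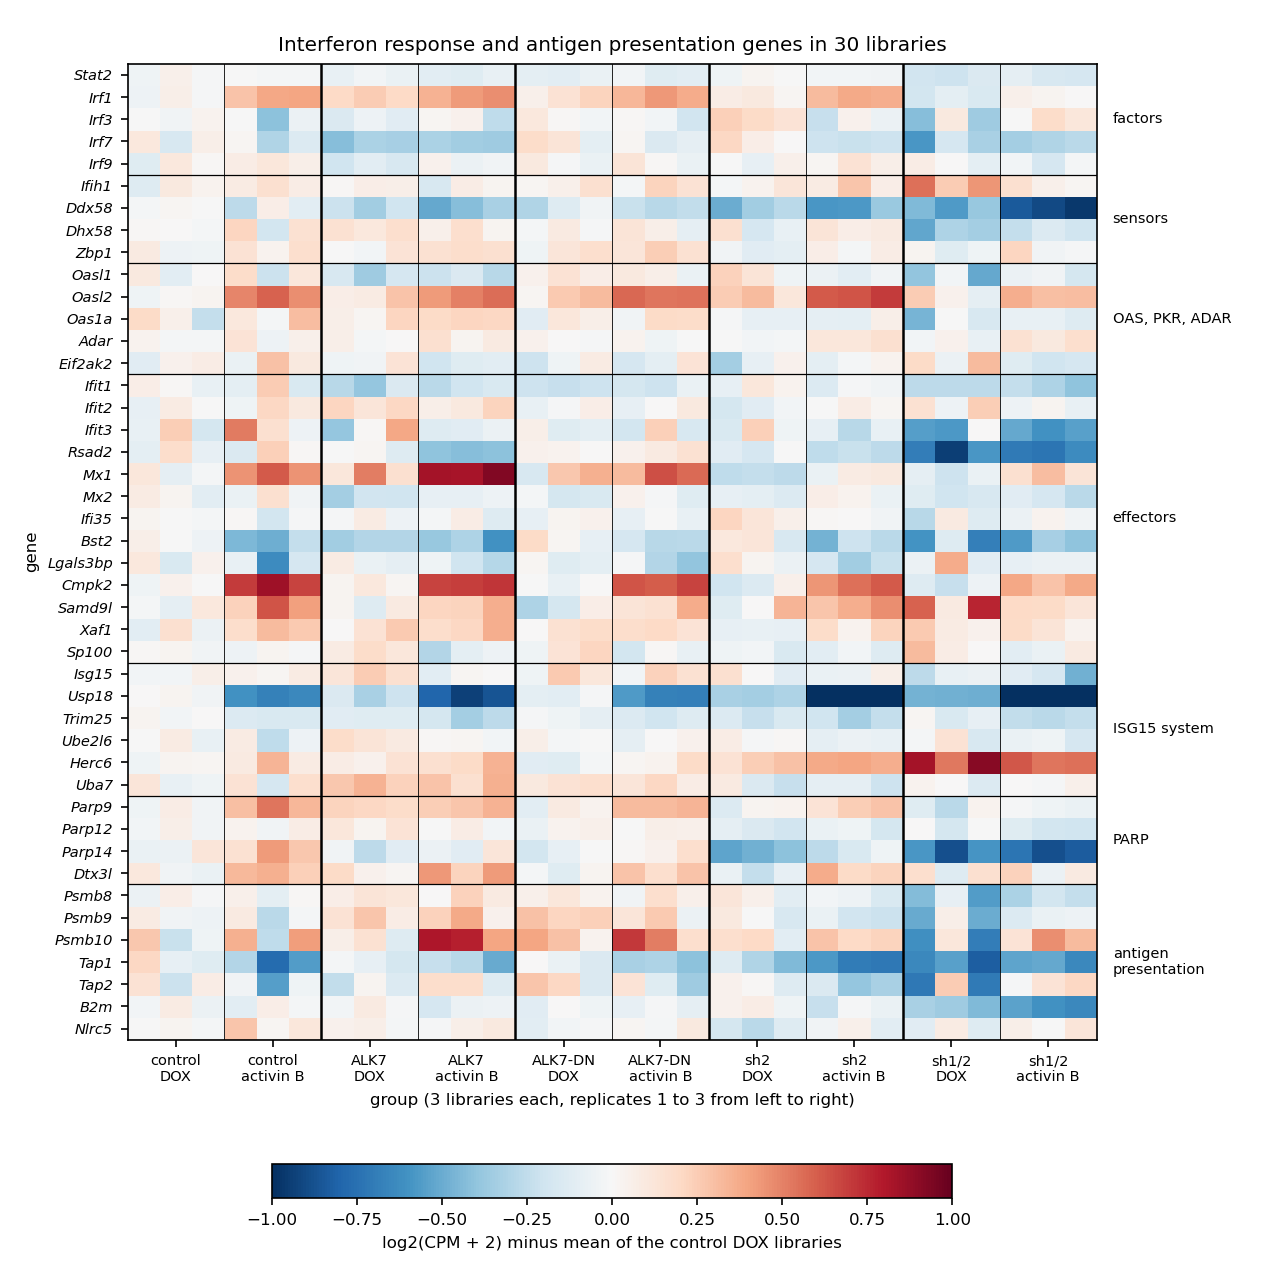
Rows are the 44 tested members grouped by role, columns the 30 libraries in 10 groups of 3. Colour is log2(CPM + 2) minus the mean of the 3 control libraries with DOX alone, capped at 1 in either direction. Cmpk2, Oasl2 and Irf1 are redder with activin B than without it in the lines, Usp18 is bluer, and Usp18, Ddx58, Parp14 and B2m are bluest in the sh1/2 columns with activin B.

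The first comparison asked whether the hairpin lines differed from control cells in these genes when both had received activin B, where all libraries belong to batch 1. In sh1/2 cells 17 of 44 members were lower and 1 was higher than in control cells. Of all 15627 genes 18.3% were lower and 16.9% higher, 35.2% in all. The members' median log2 fold change was -0.21, against 0.01 for all genes. In sh2 cells 6 members were lower and none was higher, against 6.18% and 3.06% of all genes (9.23% called); a further 6 members had an unadjusted p under 0.05. The members' median there was -0.11, against 0.01. Herc6 was the higher member in sh1/2 cells. Without the 3 GC-shifted libraries, of which control replicate 2 enters here, 16 of the 18 members called in sh1/2 cells were still called, and Mx2 and Eif2ak2 were not. In sh2 cells 4 of the 6 were still called, and Rsad2 and Cmpk2 were not. Across the 44 members the sh1/2 fold change rose with GC content (Spearman 0.44, and 0.36 across all genes with a GC value). Without the 3 libraries a weaker trend remained (0.26 and 0.18). For sh2 cells the coefficients were 0.22 and 0.20, and without the 3 libraries -0.26 and -0.17. The summed beta cell markers ran from 14176 to 16361 CPM in control, from 14582 to 15149 CPM in sh2 and from 11891 to 13597 CPM in sh1/2 libraries with activin B, and the immune markers other than Siglech from 2.49 to 3.20, from 3.00 to 3.64 and from 4.34 to 4.81 CPM. With Siglech the immune sums ran from 46.8 to 51.4, from 76.7 to 88.9 and from 50.1 to 56.9 CPM; their part in the differences was not tested.

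**Figure D2:**
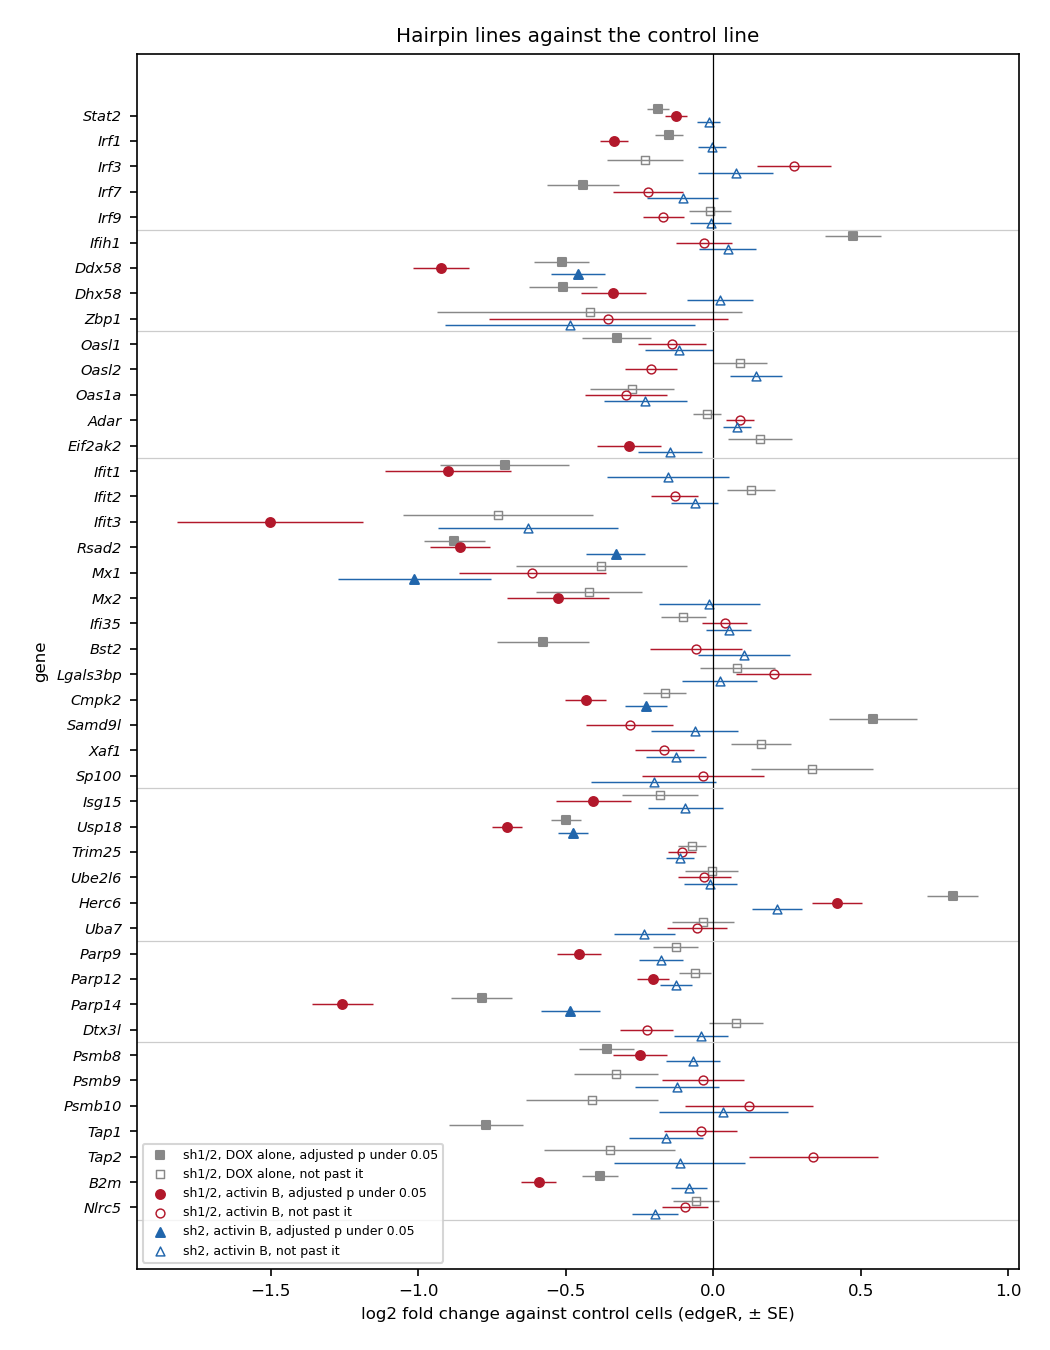
Points are log2 fold changes against control cells (x axis, edgeR, ± SE) for each tested member (y axis, by role) in sh1/2 cells with DOX alone (grey squares), sh1/2 cells with activin B (red circles) and sh2 cells with activin B (blue triangles). Filled symbols passed adjusted p under 0.05. Most filled symbols lie left of 0, and Herc6 is the only member filled right of 0 with activin B.

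Among the ISG15 system, Usp18 (chromosome 6, 121245906 to 121270917, plus strand, mm10) was lower in both hairpin lines. Usp18 removes ISG15 from proteins and restrains signalling at the type I interferon receptor. With activin B its CPM were 40.4, 38.6 and 39.4 in control libraries, 28.4, 27.8 and 29 in sh2 libraries and 24.5, 24.7 and 23.8 in sh1/2 libraries. The 3 groups did not overlap, and sh1/2 cells were lowest. The log2 fold change was -0.70 ± 0.05 (SE, adjusted p = 1.12e-10) in sh1/2 and -0.47 ± 0.05 (adjusted p = 5.1e-07) in sh2 cells, and -0.22 ± 0.05 (adjusted p = 0.00206) between them.

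Herc6, which encodes the E3 ligase that attaches ISG15 in mice, went the other way. It stood at 27.1, 32.7 and 27 CPM in control, 33.6, 34 and 33.2 CPM in sh2 and 40.2, 37.8 and 38 CPM in sh1/2 libraries with activin B. All 3 sh1/2 libraries were above all control libraries (0.42 ± 0.09, adjusted p = 0.000432), while sh2 did not pass (0.22 ± 0.09, adjusted p = 0.131) with all libraries and did without the 3 GC-shifted ones (0.31, adjusted p = 0.00534). Isg15 itself, the ubiquitin-like modifier, was at 5.82, 5.7 and 6.02 CPM in control and 5.01, 4.78 and 3.43 CPM in sh1/2 libraries, of which replicate 3 was the lowest. It passed the test in sh1/2 cells (-0.41 ± 0.13, adjusted p = 0.0154), but not without that replicate (adjusted p = 0.127). The activating enzyme Uba7, the conjugating enzyme Ube2l6 and the ligase Trim25 passed in neither line with activin B (log2 fold changes from -0.23 to -0.01). Uba7 passed in sh2 cells without the 3 GC-shifted libraries (-0.35, adjusted p = 0.0228).

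Of the 4 sensors, 2 were lower in sh1/2 and 1 in sh2 cells, against 18.3% and 6.18% of all genes. Ddx58 (chromosome 4, 40203773 to 40239828, minus strand) encodes RIG-I, which recognises RNA with a triphosphate end. It had 16.9, 21.7 and 19 CPM in control, 13.2, 13.2 and 15.5 CPM in sh2 and 10.6, 10.1 and 9.62 CPM in sh1/2 libraries with activin B. The sh2 libraries lay below the control libraries and the sh1/2 libraries below both. Fold changes on the log2 scale were -0.92 ± 0.09 (adjusted p = 3.45e-08) in sh1/2 cells and -0.46 ± 0.09 (adjusted p = 0.00166) in sh2 cells. Dhx58, which encodes the regulator LGP2, stood at 9.1, 6.43 and 8.6 CPM in control and 6.11, 6.7 and 6.32 CPM in sh1/2 libraries. The groups overlapped because control replicate 2, the GC-shifted library, was the lowest control; the change was -0.34 ± 0.11 (adjusted p = 0.0203) with it and -0.47 (adjusted p = 0.00066) without the 3 GC-shifted libraries. Leaving out control replicate 1 or 3, or sh1/2 replicate 1 or 3, ended the call (adjusted p up to 0.122). Ifih1, which encodes MDA5, the sensor of long double-stranded RNA, had 12.5, 13.4 and 12.4 CPM in control and 13.4, 12.2 and 11.9 CPM in sh1/2 libraries and passed in neither line (-0.03 ± 0.10, adjusted p = 0.832 in sh1/2; 0.05 ± 0.10, adjusted p = 0.849 in sh2).

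Eif2ak2 encodes PKR, the kinase that halts translation on double-stranded RNA. Its CPM with activin B were 55.2, 71.3 and 62.2 in control, 54, 56.9 and 59.2 in sh2 and 53.2, 50.3 and 51.2 in sh1/2 libraries. The sh1/2 libraries were below all control libraries (-0.29 ± 0.11, adjusted p = 0.0432), but without the 3 GC-shifted libraries the change was -0.19 (adjusted p = 0.207). Leaving out control replicate 2 or 3, or any sh1/2 replicate, also ended the call (adjusted p up to 0.251). Of the other genes that act on RNA, Oasl2 had 20.4, 21.9 and 19.9 CPM in control, 22.3, 22.6 and 23.9 CPM in sh2 and 18.5, 17.6 and 17.7 CPM in sh1/2 libraries. It differed between the hairpin lines (-0.36 ± 0.09, adjusted p = 0.00432) and not past the test between either and control cells (-0.21 ± 0.09, adjusted p = 0.0672 in sh1/2; 0.14 ± 0.09, adjusted p = 0.386 in sh2). Oasl1, a translational repressor of Irf7, stood at 21.6, 15.9 and 20.5 CPM in control and 18, 18.3 and 16.5 CPM in sh1/2 libraries (-0.14 ± 0.11, adjusted p = 0.369). They overlapped through control replicate 2, a GC-shifted library, and without the 3 such libraries Oasl1 passed (-0.26, adjusted p = 0.0261), as did Oas1a, which makes the activator of RNase L (-0.38, adjusted p = 0.0286, against -0.30, adjusted p = 0.101).

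The antiviral effectors held 5 lower members of 13 tested in sh1/2 cells and 3 in sh2 cells, against 18.3% and 6.18% of all genes. Rsad2 (chromosome 12, 26442746 to 26456452, minus strand) encodes viperin, an enzyme that makes a chain-terminating nucleotide. Its CPM with activin B were 13.4, 18.1 and 15.2 in control, 12.3, 12.6 and 12.2 in sh2 and 8.42, 8.29 and 9.02 in sh1/2 libraries. Every sh1/2 library was below every sh2 library, and every sh2 library below every control library. The log2 fold change in sh1/2 cells was -0.86 ± 0.10 (adjusted p = 4e-07). The smaller difference in sh2 cells (-0.33 ± 0.10, adjusted p = 0.0383) did not pass without control replicate 2 or 3 or without any 1 of the sh2 replicates (adjusted p up to 0.253). Nor did it pass without the 3 GC-shifted libraries (-0.21, adjusted p = 0.138).

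Ifit3, an RNA-binding antiviral protein, showed the largest fold change of a member in sh1/2 cells with activin B. It was read at 4.91, 3.39 and 2.66 CPM in control, 2.55, 1.98 and 2.6 CPM in sh2 and 1.4, 1.17 and 1.31 CPM in sh1/2 libraries. The control libraries were spread widely, and all 3 sh1/2 libraries were below them (-1.50 ± 0.32, adjusted p = 0.000617). Ifit3 has a close copy, Ifit3b, and how reads shared by such copies were counted is not given in the sources used here, so its value is uncertain. Its family member Ifit1, also an RNA-binding protein, was lower in sh1/2 cells with activin B (-0.90 ± 0.21, adjusted p = 0.00191) at 1.51 ± 0.552 CPM (SD, n = 3) in control and 0.797 ± 0.152 in sh1/2 cells. Without the 3 GC-shifted libraries the Ifit1 change was -0.58. In an edgeR fit of the compared groups alone its call was lost (adjusted p = 0.0599). Cmpk2, a mitochondrial nucleotide kinase gene beside Rsad2 on chromosome 12, was at 21.3, 23.8 and 20.9 CPM in control, 17.4, 19 and 19.9 CPM in sh2 and 16.7, 15.5 and 16.7 CPM in sh1/2 libraries. The 3 groups did not overlap, with log2 fold changes of -0.43 ± 0.07 (adjusted p = 3.51e-05) in sh1/2 and -0.23 ± 0.07 (adjusted p = 0.0433) in sh2 cells. The sh2 difference did not pass without the 3 GC-shifted libraries (-0.17, adjusted p = 0.166), nor without control replicate 1 or 2 or sh2 replicate 1 or 2. Mx1, a GTPase that traps viral particles, was lower in sh2 cells (-1.01 ± 0.26, adjusted p = 0.0119), from 2.4 ± 0.293 to 1.18 ± 0.199 CPM (SD, n = 3), and its sh1/2 value did not pass (-0.61 ± 0.25, adjusted p = 0.059). The sh2 call on Mx1 ended without control replicate 2 or sh2 replicate 1 (adjusted p up to 0.0721). Its relative Mx2, annotated as a polymorphic pseudogene, was at 1.49 ± 0.308 CPM in control and 1.02 ± 0.168 CPM in sh1/2 cells (-0.53 ± 0.17, adjusted p = 0.031), a call that ended without control replicate 2 or without sh1/2 replicate 2 or 3 (adjusted p up to 0.237), and by DESeq2.

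Of the PARP group, 3 of 4 were lower in sh1/2 and 1 in sh2 cells, against 18.3% and 6.18% of all genes. Parp14 (chromosome 16, 35832874 to 35871544, minus strand), a mono-ADP-ribosyltransferase, had 19.7, 24.2 and 21.6 CPM in control, 14.3, 15.5 and 16.9 CPM in sh2 and 9.78, 8.6 and 8.98 CPM in sh1/2 libraries with activin B. The groups did not overlap. The log2 fold changes were -1.26 ± 0.10 (adjusted p = 9.06e-10) in sh1/2, -0.48 ± 0.10 (adjusted p = 0.00223) in sh2 and -0.77 ± 0.10 (adjusted p = 4.42e-06) in sh1/2 against sh2 cells. Parp9, the partner of the ubiquitin ligase Dtx3l, was at 35.6, 42.2 and 36.5 CPM in control, 31.7, 34.4 and 35.2 CPM in sh2 and 28.4, 27.7 and 27.3 CPM in sh1/2 libraries. The sh1/2 libraries were below the other 2 groups (-0.46 ± 0.08 against control, adjusted p = 4.08e-05), and sh2 did not pass (adjusted p = 0.17). Parp12, an RNA-associated member of the family, showed a small shift from 65.1, 61.9 and 67 CPM in control to 58, 55.5 and 55.1 CPM in sh1/2 libraries (-0.20 ± 0.05, adjusted p = 0.00517).

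Among the antigen presentation genes 2 of 7 were lower in sh1/2 cells with activin B and none in sh2 cells, against 18.3% and 6.18% of all genes. B2m (chromosome 2, 122147686 to 122153083, plus strand) had 88.9, 99.97 and 94.3 CPM in control, 81.4, 94.6 and 91.4 CPM in sh2 and 65.3, 62.1 and 60.6 CPM in sh1/2 libraries. Control and sh2 libraries overlapped and sh1/2 libraries were below both, by -0.59 ± 0.06 (adjusted p = 3.25e-08) against control and -0.51 ± 0.06 (adjusted p = 7.29e-07) against sh2 cells. The annotation places B2m inside Patl2, a gene on the opposite strand. The library kit keeps strand, but the strand setting of the counting is not given in the sources used here, so reads of the 2 genes may not be separate. The same doubt holds for other members that share bases with a gene on the opposite strand: Psmb10 (all 2710 bases, Gm16156), Adar (7252, Chrnb2), Parp9 (5854, Gm15564, and 682, Dtx3l), Dhx58 (2637, Gm11547), Psmb8 (2139, Gm20496), Irf3 (1065, Bcl2l12), Irf1 (907, Gm17334), Sp100 (598, Gm17017) and Tap1 (212, Psmb9). It also holds for Tap2 (3148, Gm15821), Ifi35 (815, Gm11626), Nlrc5 (748, 9330175E14Rik), Eif2ak2 (532, Gm26637), Irf7 (45, Phrf1) and Oasl1 (38, Gm13822), and for the partners Dtx3l and Psmb9. Uba7 (1003, Gm20661) and Irf9 (123, Rnf31) share bases with a protein-coding gene on the same strand. These overlaps, that of B2m included, are of whole gene spans with introns and do not measure how many reads could be shared. Psmb8, a catalytic subunit of the immunoproteasome, stood at 43.4, 38.9 and 42 CPM in control and 33.1, 36.5 and 35.1 CPM in sh1/2 libraries (-0.25 ± 0.09, adjusted p = 0.0395). This call ended without control replicate 1 or 3 or without sh1/2 replicate 1 or 3 (adjusted p up to 0.135). Tap1, a chain of the transporter that carries peptides to MHC class I, was at 13.4, 9.08 and 10.8 CPM in control, 10.7, 9.64 and 9.55 CPM in sh2 and 11.1, 11.3 and 10.1 CPM in sh1/2 libraries, and passed in neither line.

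Of the 5 transcription factors, 2 were lower in sh1/2 cells and none in sh2 cells, against 18.3% and 6.18% of all genes. Irf1, which activates class I and other interferon target genes, stood at 79.7, 85.3 and 85.7 CPM in control, 81.1, 84.9 and 83.9 CPM in sh2 and 67.4, 66.2 and 65.1 CPM in sh1/2 libraries with activin B. The sh2 and control libraries overlapped, and the sh1/2 libraries were below both (-0.34 ± 0.05 against control, adjusted p = 4.77e-06, and -0.33 ± 0.05 against sh2, adjusted p = 1.08e-05). Stat2, the interferon-specific STAT, had 62.8, 62.1 and 62 CPM in control and 59.2, 56.2 and 55.9 CPM in sh1/2 libraries, a small difference (-0.13 ± 0.04, adjusted p = 0.0118) that did not pass without sh1/2 replicate 3. Irf7, the amplifier of type I interferon production, was at 8.78, 6.64 and 7.72 CPM in control and 6.4, 6.65 and 6.86 CPM in sh1/2 libraries and did not pass (-0.22 ± 0.12, adjusted p = 0.159). It did without the 3 GC-shifted libraries (-0.31, adjusted p = 0.0241).

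**Figure D3:**
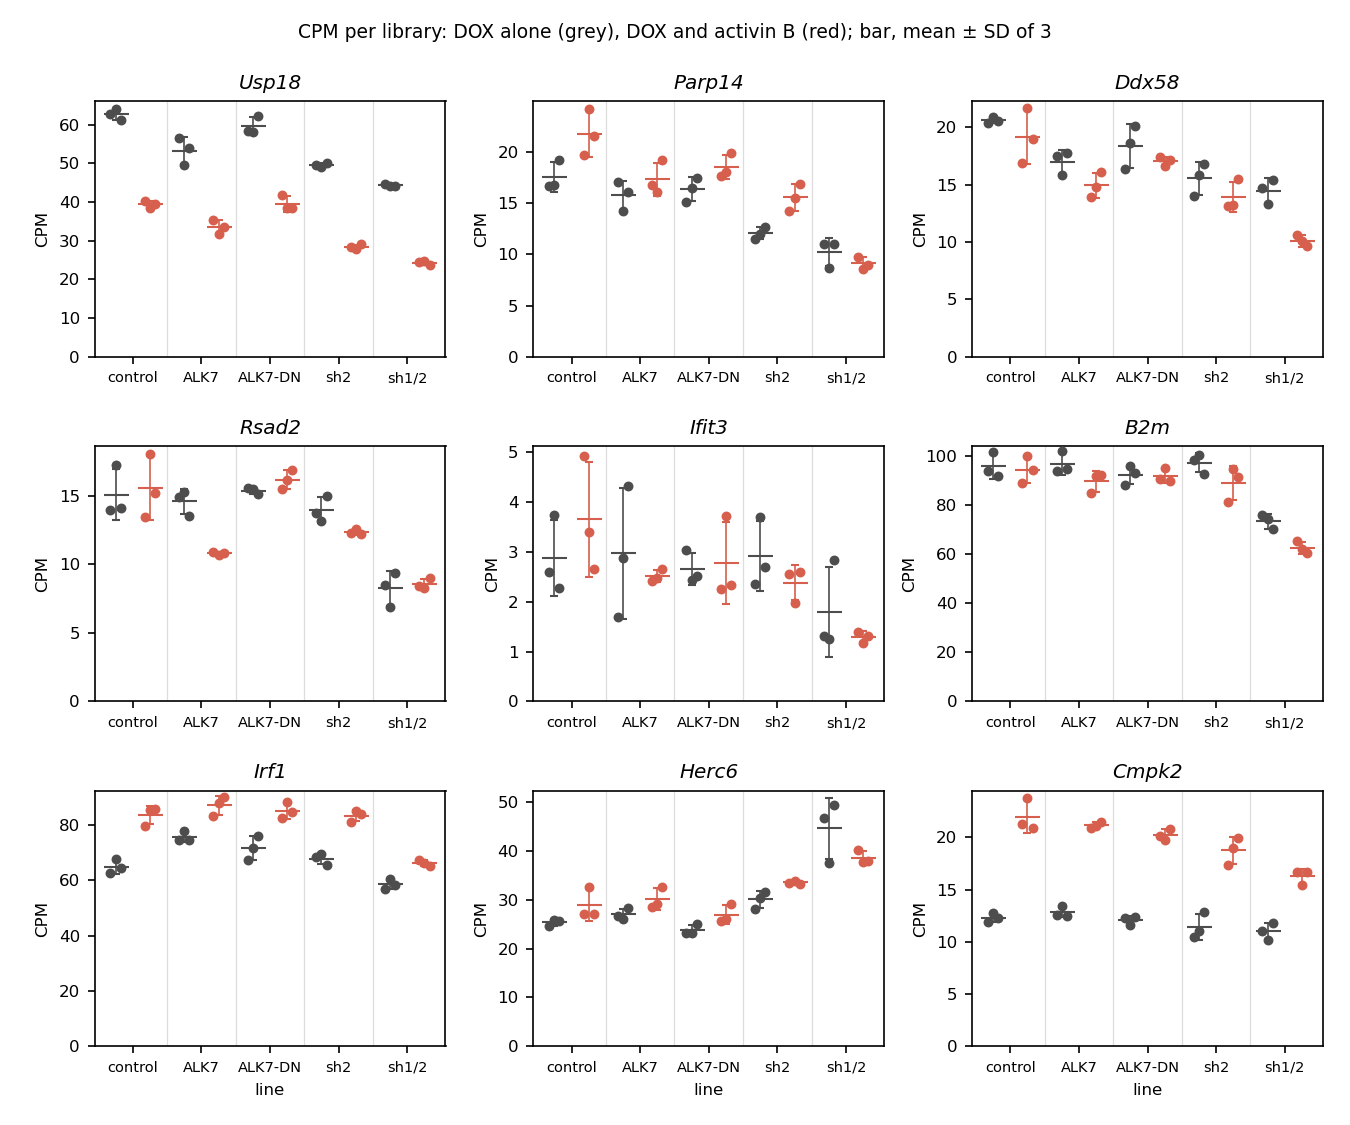
Each panel gives the CPM (y axis, from 0) of 1 member in every library by line (x axis), grey with DOX alone and red with DOX and activin B. Points are libraries and bars the mean ± SD of 3. Within each treatment, Usp18, Parp14, Ddx58, Rsad2 and B2m have their lowest mean in sh1/2 cells and Herc6 its highest, and Cmpk2 and Irf1 are higher with activin B in every line.

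The hairpin lines also differed from each other with activin B, in a comparison that shares no control library. Of 44 members 13 were lower in sh1/2 than in sh2 cells and none was higher, against 12.5% lower and 10.8% higher of all genes (23.3% called). Beside the values above, Rsad2 differed by -0.53 ± 0.10 (adjusted p = 0.000424), Ddx58 by -0.46 ± 0.09 (adjusted p = 0.000683), Ifit1 by -0.74 ± 0.22 (adjusted p = 0.0136) and Parp9 by -0.28 ± 0.08 (adjusted p = 0.00817). Acvr1c was lower in sh1/2 than in sh2 cells as well (-0.68 ± 0.11). The beta cell and immune marker sums of both lines, given above, differed in the same comparison. No GC-shifted library enters it, yet across all genes with a GC value the log2 fold change rose with GC content (Spearman 0.32). With a correction for GC content the call on Cmpk2 was lost and the other calls were kept. Leaving out 1 library ended the calls on Cmpk2 (sh2 replicate 2 or 3, or any sh1/2 replicate; adjusted p up to 0.176), Stat2 (any sh2 replicate, or sh1/2 replicate 2 or 3), Mx2 (sh2 replicate 1 or 2, or sh1/2 replicate 2 or 3; up to 0.202; also by DESeq2), Dhx58 (sh2 replicate 1, or sh1/2 replicate 1 or 3; up to 0.0727) and Ifit1 (sh2 replicate 2 or sh1/2 replicate 3; up to 0.0798).

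The members' promoters in the RefSeq table, shown above in part, can be set beside these values, as counts with no test. Of 11 tested members with the ISRE letters 8 were lower in sh1/2 cells with activin B (median log2 fold change -0.41), and of 24 without them 4 were lower and 1 higher (median -0.12). In sh2 cells the counts were 2 of 11 and 1 of 24. Of 8 members with the GAS letters 3 were lower in sh1/2 cells (median -0.19), and of 27 without them 9 were lower and 1 higher (median -0.16). Of all genes, 18.3% were lower in sh1/2 and 6.18% in sh2 cells. Usp18, Parp14, Parp9, Dhx58 and Mx2, also lower in sh1/2 cells with activin B, were not among the promoters of the table and are not counted here. The calls on Eif2ak2, Isg15 and Stat2, which hold the ISRE letters, ended in fits given above.

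With DOX alone, 14 members were lower and 3 higher in sh1/2 than in control cells, against 18.6% lower and 19.4% higher of all genes (38% called), and the members' median was -0.18 against -0.00. The beta cell marker sum was 12558 to 16950 CPM in these sh1/2 libraries and 21158 to 21651 CPM in control libraries, and the immune sum 27.1 to 30.7 against 16.2 to 19.1 CPM (without Siglech 3.69 to 4.17 against 2.31 to 3.34); their part in the differences was not tested. Since 2 of the 3 sh1/2 libraries here are GC-shifted, each call is read with its value without the 3 GC-shifted libraries, which leaves a single sh1/2 library assumed to vary like the other groups. Of the 17 calls 9 were kept, in the same direction. Usp18 had 62.9, 63.9 and 61.2 CPM in control and 44.5, 44.3 and 44.2 CPM in sh1/2 libraries (-0.50 ± 0.05, adjusted p = 3.34e-08, and -0.51 without the 3). Rsad2 had 13.9, 17.2 and 14.1 and 8.53, 6.88 and 9.41 CPM (-0.88 ± 0.10, adjusted p = 4.06e-07, and -1.14). In both genes the groups did not overlap. Parp14 had 16.7, 16.8 and 19.3 and 11, 8.65 and 11 CPM (-0.78 ± 0.10, adjusted p = 2.21e-06, and -1.03). Ddx58 had 20.4, 20.9 and 20.6 and 14.7, 13.3 and 15.4 CPM (-0.51 ± 0.09, adjusted p = 0.000125, and -0.64). B2m had 94, 101 and 91.6 and 75.7, 74.2 and 70.02 CPM (-0.38 ± 0.06, adjusted p = 2.01e-05, and -0.37). These genes were thus lower in sh1/2 cells with DOX alone and with activin B. So were Dhx58, at 7.65, 7.6 and 7.4 CPM in control and 4.66, 5.7 and 5.56 CPM in sh1/2 libraries (-0.51 ± 0.11, adjusted p = 0.00115, and -0.41), and Stat2, at 61.2, 65.5 and 62.5 and 55.1, 54.2 and 56.9 CPM (-0.19 ± 0.04, adjusted p = 0.000414, and -0.22), and in neither did the groups overlap. Parp9 (-0.30, adjusted p = 0.0133), Cmpk2 (-0.28, adjusted p = 0.038) and Lgals3bp (0.36, adjusted p = 0.0339) passed without the 3 and not with them (-0.13, -0.16 and 0.08).

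Tap1 was lower in sh1/2 cells with DOX alone and not with activin B. Its CPM with DOX alone were 19.8, 15.9 and 15.4 in control and 10.1, 11 and 8.71 in sh1/2 libraries (-0.77 ± 0.12, adjusted p = 3.24e-05, and -0.63, adjusted p = 0.00456 without the 3). Herc6 (39.4% GC) was higher with DOX alone too, at 24.6, 25.9 and 25.7 CPM in control and 46.9, 37.5 and 49.6 CPM in sh1/2 libraries (0.81 ± 0.09, adjusted p = 8.03e-08, and 0.56, adjusted p = 5.26e-05). Herc6 was highest in the 2 GC-shifted sh1/2 libraries, and so were the other 2 higher members, which did not pass without the 3. Ifih1 (42.8% GC) had 10.5, 12.6 and 12.1 CPM in control and 18.1, 14.3 and 16.6 CPM in sh1/2 libraries, of which the library without the shift, replicate 2, was the lowest (0.47 ± 0.10, adjusted p = 0.000418, and 0.28, adjusted p = 0.131). Samd9l (38.8% GC), a translational inhibitor of the antiviral response, had 19.3, 18.3 and 21.2 and 30.4, 21 and 34.5 CPM, again lowest in replicate 2 (0.54 ± 0.15, adjusted p = 0.00604, and 0.09, adjusted p = 0.783). Psmb8, Bst2, Irf7, Oasl1, Irf1 and Ifit1 were lower with all libraries and did not pass without the 3. Leaving out 1 library ended the calls on Irf1 (control replicate 2 or sh1/2 replicate 1), Irf7 (sh1/2 replicate 1), Ifit1 (control replicate 1), Oasl1 (control replicate 1 or 3, or sh1/2 replicate 1 or 3) and Samd9l (sh1/2 replicate 3).

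In sh2 cells with DOX alone, 4 members were lower and none higher than in control cells, against 6.64% and 3.35% of all genes (9.99% called). All 3 sh2 libraries here are of batch 2 and the controls of batch 1, so batch and line cannot be told apart. Usp18 stood at 49.6, 49.1 and 50.1 CPM (-0.34 ± 0.05, adjusted p = 4.18e-05), Parp14 at 11.5, 12 and 12.7 CPM (-0.54 ± 0.10, adjusted p = 0.000814) and Ddx58 at 14, 15.8 and 16.8 CPM (-0.41 ± 0.09, adjusted p = 0.00442), each below every control library. The fourth was Trim25, an activator of RIG-I, with -0.18 ± 0.05 (adjusted p = 0.0172), a call that ended without control replicate 1 or 3 or sh2 replicate 2 (adjusted p up to 0.108). Usp18, Parp14 and Ddx58 were thus lower than in control cells in both hairpin lines under both treatments, where lines of the same treatment share their control libraries. In a fit of the compared groups alone, the sh2 calls with activin B on Ddx58 (adjusted p = 0.102) and Parp14 (adjusted p = 0.0654) were lost.

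The cells labelled ALK7 and ALK7-DN share the PB-33 plasmid with control cells. With DOX alone, cells labelled ALK7 had 1 higher and 2 lower members, against 1.03% and 0.953% of all genes (1.98% called). Irf1 was higher at 74.7, 77.8 and 74.6 CPM, against 62.7, 67.7 and 64.3 CPM in control libraries (0.22 ± 0.05, adjusted p = 0.0115). Usp18 was lower at 56.5, 49.5 and 53.9 CPM (-0.23 ± 0.05, adjusted p = 0.0109), and so was Irf7 at 5.92, 6.58 and 6.49 CPM, against 9.48, 7.53 and 9.09 CPM (-0.46 ± 0.12, adjusted p = 0.0496). With activin B, 3 members were lower in cells labelled ALK7 and none higher, against 2.44% and 2.09% (4.53% called). These were Usp18 at 35.4, 31.8 and 33.5 CPM (-0.23 ± 0.05, adjusted p = 0.0062), Ddx58 at 13.9, 14.8 and 16.1 CPM (-0.36 ± 0.09, adjusted p = 0.0233) and Rsad2 at 10.9, 10.7 and 10.8 CPM (-0.52 ± 0.10, adjusted p = 0.00228). Each of these 6 calls was lost in a fit of the compared groups alone. Leaving out 1 library ended those on Irf1 (control replicate 1 or 3, or ALK7 replicate 2), Irf7 (control replicate 1 or 3, or any ALK7 replicate), Ddx58 (control replicate 2 or 3, or ALK7 replicate 1 or 2) and, in both treatments, Usp18 (ALK7 replicate 2, and with DOX alone control replicate 2). In cells labelled ALK7-DN no member passed by edgeR with DOX alone, where 0.378% of all genes were higher and 0.589% lower (0.966% called), or with activin B, where 0.73% were higher and 0.921% lower (1.65% called) and batch and line cannot be told apart. Without the 3 GC-shifted libraries Oasl1 was lower in cells labelled ALK7 with activin B (-0.40, adjusted p = 0.00912, against -0.28, adjusted p = 0.191). In cells labelled ALK7-DN, unadjusted p was under 0.05 for 4 members with DOX alone and for 1 with activin B, and DESeq2 also called 0 in both.

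The next question was which members responded to activin B, a TGF-beta family ligand that signals through ALK7 and related receptors to SMAD proteins. Of the 44 members, 9 were higher and 4 lower in control cells, against 10.7% and 9.66% of all genes (20.3% called). In cells labelled ALK7, 6 members were higher and 4 lower (13% and 12.3% of all genes, 25.3% called) and in sh1/2 cells 7 and 6 (17.5% and 19.1%, 36.6% called). In cells labelled ALK7-DN, 5 were higher and 1 lower (8.48% and 7.62%, 16.1% called) and in sh2 cells 9 and 4 (10.7% and 8.91%, 19.6% called). In these last 2 lines batch and treatment cannot be told apart. With activin B the beta cell marker sum of control cells went from between 21158 and 21651 to between 14176 and 16361 CPM, and the immune marker sum, mostly Siglech, from between 16.2 and 19.1 to between 46.8 and 51.4 CPM; their part in the responses was not tested.

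Cmpk2, Oasl2 and Irf1 were higher and Usp18 was lower with activin B in each of the 5 lines. The sh1/2 calls on Oasl2 and Irf1 were lost in some alternative fits, given below. Cmpk2 went from 11.9, 12.7 and 12.3 to 21.3, 23.8 and 20.9 CPM in control cells (0.83 ± 0.07, adjusted p = 2.29e-09) and from 11.1, 10.2 and 11.8 to 16.7, 15.5 and 16.7 CPM in sh1/2 cells (0.57 ± 0.07, adjusted p = 2.13e-06). The change was 0.72 ± 0.07 in the line labelled ALK7, 0.75 ± 0.07 in the line labelled ALK7-DN and 0.72 ± 0.07 in sh2 cells, and in no line did the treated and untreated libraries overlap. Rsad2, its neighbour on the chromosome, passed the test in cells labelled ALK7, where it fell from 15, 15.3 and 13.6 to 10.9, 10.7 and 10.8 CPM (-0.43 ± 0.10, adjusted p = 0.00203); its other changes ran from -0.17 in sh2 to 0.07 in cells labelled ALK7-DN.

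Oasl2, an OAS-like protein, went from 13.5, 14.1 and 14.2 to 20.4, 21.9 and 19.9 CPM in control cells (0.57 ± 0.09, adjusted p = 2.94e-05). In sh1/2 cells it went from 17, 14.4 and 13 to 18.5, 17.6 and 17.7 CPM (0.27 ± 0.09, adjusted p = 0.0209), and there the change did not pass without the 3 GC-shifted libraries (0.32, adjusted p = 0.0807). Irf1 went from 62.7, 67.7 and 64.3 to 79.7, 85.3 and 85.7 CPM in control cells (0.36 ± 0.05, adjusted p = 2.03e-06), with 0.20 in the line labelled ALK7, 0.25 in the line labelled ALK7-DN, 0.30 in sh2 and 0.18 in sh1/2 cells. With a correction for GC content in edgeR the sh1/2 call on Irf1 was lost (adjusted p = 0.724). It was also lost in a fit of the compared groups alone. Without the 3 GC-shifted libraries the sh1/2 value was 0.14 (adjusted p = 0.272).

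Usp18 fell from 62.9, 63.9 and 61.2 to 40.4, 38.6 and 39.4 CPM in control cells (-0.67 ± 0.05, adjusted p = 1.76e-10). In cells labelled ALK7 the change was -0.67 ± 0.05, in cells labelled ALK7-DN -0.59 ± 0.05, in sh2 cells -0.80 ± 0.05 and in sh1/2 cells -0.87 ± 0.05 (adjusted p = 3.26e-12). Every treated library was below every untreated library of its line. The difference between the sh1/2 and control responses did not pass (-0.20 ± 0.07, adjusted p = 0.0519).

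Other responses were seen in some lines. Mx1 was higher in control (1.13 ± 0.26, adjusted p = 0.00269), the line labelled ALK7 (1.05 ± 0.25), sh2 (0.97 ± 0.30) and sh1/2 cells (0.90 ± 0.27), and did not pass in cells labelled ALK7-DN (0.71 ± 0.25, adjusted p = 0.055). The sh1/2 call on Mx1 was lost without the 3 GC-shifted libraries. Dtx3l, the ligase partner of Parp9, was called higher in every line but sh1/2 (from 0.29 in the line labelled ALK7 to 0.42 in sh2 cells, and 0.02 ± 0.09 in sh1/2, adjusted p = 0.879). The sh1/2 libraries with DOX alone include GC-shifted ones. Without the 3 GC-shifted libraries, Dtx3l in sh1/2 against control cells moved from 0.08 to -0.14 with DOX alone. With activin B it moved from -0.23 to -0.20. Parp9 was higher in control (0.41 ± 0.08), the line labelled ALK7-DN (0.34 ± 0.08) and sh2 cells (0.26 ± 0.08). Tap1 fell in control cells, from 19.8, 15.9 and 15.4 to 13.4, 9.08 and 10.8 CPM (-0.61 ± 0.12, adjusted p = 0.000676), and in sh2 cells (-0.44 ± 0.13, adjusted p = 0.0129), and Bst2, the tetherin that holds budding virus at the membrane, fell in the same lines (-0.50 ± 0.16, adjusted p = 0.0228, and -0.44 ± 0.16, adjusted p = 0.0495). Psmb10, an immunoproteasome subunit, was higher in the line labelled ALK7 (0.72 ± 0.22, adjusted p = 0.0162) and sh1/2 cells (0.75 ± 0.22, adjusted p = 0.0117), the latter not without the 3 GC-shifted libraries (0.23, adjusted p = 0.683). 

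The remaining responses were called in 1 to 3 lines each. Of the 13 calls in sh1/2 cells 3 were kept without the 3 GC-shifted libraries, and of the 13 in control cells 10. Trim25 fell in control (-0.15 ± 0.05, adjusted p = 0.0266), the line labelled ALK7 (-0.14 ± 0.05) and sh1/2 cells (-0.19 ± 0.05). The sh1/2 call on Trim25 was lost without the 3 GC-shifted libraries. Xaf1, a pro-apoptotic gene, was higher in control (0.30 ± 0.10, adjusted p = 0.0354) and sh2 cells (0.29 ± 0.10, adjusted p = 0.0456), though not by DESeq2. Parp14 was higher in control (0.31 ± 0.10, adjusted p = 0.03) and sh2 cells (0.37 ± 0.10, adjusted p = 0.0116), and Samd9l in control cells (0.47 ± 0.15, adjusted p = 0.0271); the control calls on Xaf1, Parp14 and Samd9l ended without the GC-shifted control library. Sp100, a nuclear body protein, fell in cells labelled ALK7 (-0.71 ± 0.21, adjusted p = 0.0133), and Irf7 in sh2 cells (-0.38 ± 0.12, adjusted p = 0.0247). In sh1/2 cells Ifih1 (-0.39 ± 0.09), Ddx58 (-0.52 ± 0.09), Eif2ak2 (-0.33 ± 0.11) and B2m (-0.23 ± 0.06) fell and Irf3 (0.34 ± 0.13), the factor downstream of the RNA sensors, rose. Of these, Ddx58 was called without the 3 GC-shifted libraries, the others not. Adar, the RNA editing enzyme, was higher in sh2 (0.15 ± 0.05, adjusted p = 0.0262) and sh1/2 cells (0.16 ± 0.05, adjusted p = 0.01). With a correction for GC content the sh1/2 changes of Adar (-0.0060) and B2m (0.0046) came to about 0 with the opposite sign.

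Single libraries decided several of these responses. The calls on Dtx3l ended in control cells without DOX replicate 3, in cells labelled ALK7 without DOX replicate 2 or 3 or activin B replicate 1 or 3, and in cells labelled ALK7-DN without DOX replicate 1 or 2 or activin B replicate 1 or 3 (adjusted p up to 0.115). Those on Mx1 ended in sh2 cells without any DOX replicate or activin B replicate 2 or 3, and in sh1/2 cells without activin B replicate 2. Parp9 and Tap1 in sh2 cells were lost without DOX replicate 1 or activin B replicate 2 or 3 (adjusted p up to 0.109 and 0.1). Bst2 was lost without DOX replicate 1 or 2 or activin B replicate 1 or 2 in control cells, and in sh2 cells without any of these or activin B replicate 3 (up to 0.205). Psmb10 was lost in cells labelled ALK7 without DOX replicate 3 or activin B replicate 1 or 2 (up to 0.0794), Sp100 without DOX replicate 2 or activin B replicate 1, and Oasl2 in sh1/2 cells without DOX replicate 3 or activin B replicate 1 (up to 0.152). In control cells the calls on Trim25 and Xaf1 ended without DOX replicate 1 or 3 or activin B replicate 2 or 3, and those on Parp14 and Samd9l without DOX replicate 1 or 2 or activin B replicate 2 or 3. In sh2 cells those on Xaf1 and Adar ended without any DOX replicate or activin B replicate 1 or 3, that on Irf7 without DOX replicate 1 or any activin B replicate, and that on Parp14 without DOX replicate 1 or activin B replicate 3. Trim25 was lost without any DOX replicate or activin B replicate 2 or 3 in cells labelled ALK7 and without DOX replicate 1 in sh1/2 cells. In sh1/2 cells Adar was lost without DOX replicate 3, and Eif2ak2 and Irf3 without DOX replicate 1 or 3 or activin B replicate 2 or 3, as Psmb10 was without DOX replicate 1 or 3 or activin B replicate 2.

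**Figure D4:**
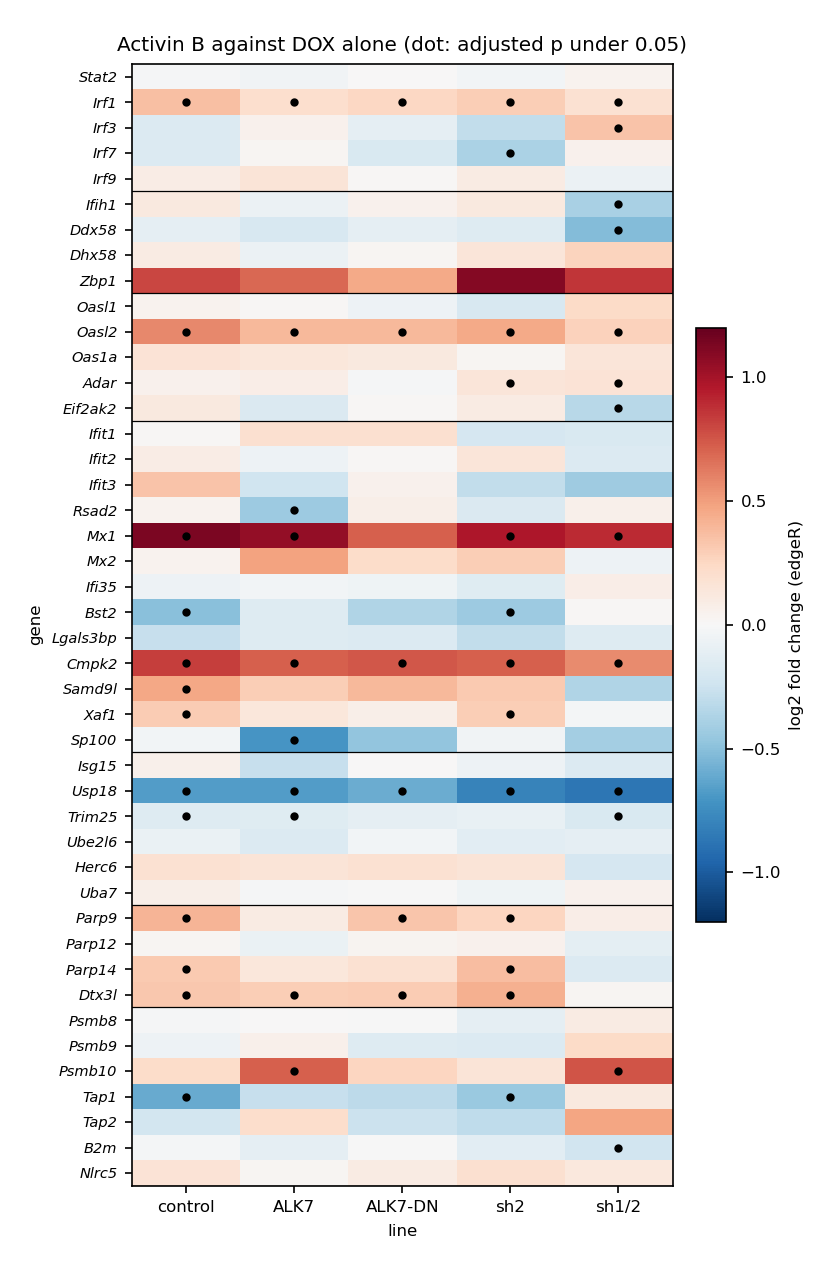
Rows are the 44 tested members by role and columns the 5 lines. Colour is the log2 fold change of activin B against DOX alone (edgeR), and a dot marks adjusted p under 0.05. Cmpk2, Oasl2 and Irf1 (red) and Usp18 (blue) carry a dot in all 5 columns; the ALK7-DN and sh2 columns compare batch 1 with batch 2.

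The response to activin B was compared between sh1/2 and control cells as an interaction. With all libraries, the log2 response was lower in sh1/2 than in control cells for 7 members and higher for 1, Tap1, against 9.22% and 8.49% of all genes (17.7% called). With the replicate number as a block within each line, 18 members were called. All 3 GC-shifted libraries enter this comparison. They were picked by their own GC slope, so a weaker slope without them was partly set by that choice. Leaving them out also keeps a single sh1/2 library with DOX alone, so calls can be lost through fewer libraries. Across the 44 members the difference in response followed GC content (Spearman 0.85 over these 44, which come from the same libraries, and 0.66 across all genes with a GC value), and without the 3 libraries it did not (-0.04, and 0.09). Without them no member passed by edgeR, 6 had an unadjusted p under 0.05, and 0.395% of all genes passed. Tap1 (55.8% GC) moved from 0.73 ± 0.18 (adjusted p = 0.0171) to 0.47 (adjusted p = 0.62) and Samd9l (38.8% GC) from -0.82 ± 0.21 (adjusted p = 0.022) to -0.26 (adjusted p = 1). Between cells labelled ALK7 and control cells no member's response differed by edgeR (0.0192% of all genes were higher and 0.0064% lower, 0.0256% called; 4 members had an unadjusted p under 0.05, DESeq2 called 0, and the fit with the replicate block called 1).

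**Figure D5:**
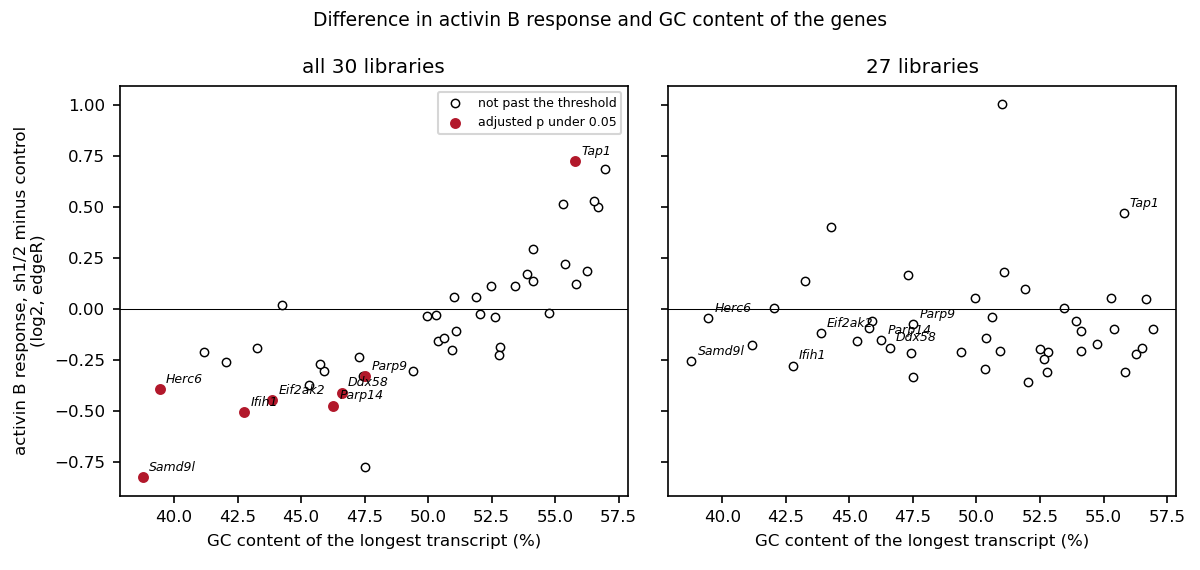
Each point is a tested member: x axis, GC content of its longest transcript (%), y axis, activin B response in sh1/2 minus that in control cells (log2, edgeR). The left panel uses all 30 libraries and the right panel the 27 left without the GC-shifted ones. The libraries left out were picked by their own GC slope, and a single sh1/2 library with DOX alone remains at right. The slope seen at left (Spearman 0.85, 8 members past adjusted p 0.05, named) is not seen at right (-0.04, none past it).

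The wider pathway was read from a list of 105 other genes, of which 103 were in the table and 76 were tested. With activin B, 22 were lower and 10 higher in sh1/2 than in control cells (median -0.03), and 7 were lower and none higher in sh2 cells (median -0.02), against the shares of all genes given above. The alternative fits, and those without the GC-shifted or single libraries, were read for members only. The calls on genes of this list were not checked in that way. Ifitm2, which blocks virus entry, was lower in both hairpin lines, at 5.21, 4.2 and 5.03 CPM in control, 2.6, 2.01 and 2.34 CPM in sh2 and 1.79, 1.42 and 1.58 CPM in sh1/2 libraries (-1.59 ± 0.16, adjusted p = 3.85e-08, and -1.06 ± 0.16, adjusted p = 6.41e-05). Every hairpin library was below every control library.

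H2-D1, a classical MHC class I heavy chain that pairs with B2m, was also lower in both lines (-0.67 ± 0.06, adjusted p = 2.17e-09 in sh1/2, and -0.33 ± 0.06, adjusted p = 0.000334 in sh2), from 155 ± 11 CPM (SD, n = 3) in control to 123 ± 2.57 in sh2 and 97.6 ± 3.1 in sh1/2 cells. The H2 genes are near-identical copies, so the split of reads between them is uncertain. Of 16 genes of MHC class I and its loading, 5 were lower and 1 higher in sh1/2 cells with activin B, and 1 was lower in sh2 cells. Of all genes 18.3% were lower and 16.9% higher in sh1/2 cells, and 6.18% were lower in sh2 cells. The receptor chain Ifngr2 (-0.53 ± 0.07, adjusted p = 1.25e-06, and -0.29 ± 0.07, adjusted p = 0.00549), the kinase Jak1 (-0.35 ± 0.06, adjusted p = 2.89e-05, and -0.22 ± 0.06, adjusted p = 0.0123) and Tor1aip1, a protein of the nuclear envelope (-0.62 ± 0.06, adjusted p = 6.05e-09, and -0.27 ± 0.06, adjusted p = 0.00265), were lower in sh1/2 and sh2 cells. The interferon-inducible GTPase Irgm1 (-0.62 ± 0.08, adjusted p = 7.03e-07, and -0.01 ± 0.08, adjusted p = 0.983) and Ifi27 (-0.70 ± 0.09, adjusted p = 1.37e-06, and -0.16 ± 0.09, adjusted p = 0.329) were lower in sh1/2 cells and did not pass in sh2 cells. All 5 MHC class II genes of the list had too few reads to be tested.

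Of the 44 members 33 passed in at least 1 of the 16 comparisons and 11 in none. The same share over all genes was not computed, so the 33 are not read as a trait of the members. Single comparisons called up to 38% of all genes. The 11 were Ifi35, Ifit2, Irf9, Lgals3bp, Nlrc5, Oas1a, Psmb9, Tap2, Uba7, Ube2l6 and Zbp1. Irf9, the DNA-binding partner of STAT2, stayed between -0.17 and 0.15 on the log2 scale over 14 comparisons of groups (smallest adjusted p = 0.0649), and Nlrc5, the transactivator of MHC class I, between -0.22 and 0.19 (smallest adjusted p = 0.0769). Zbp1, the member with the fewest reads tested, ran from -0.79 to 1.10. Without the 3 GC-shifted libraries Nlrc5 passed in sh2 cells with activin B (-0.26, adjusted p = 0.0246) and for activin B in control cells (0.23, adjusted p = 0.032), and Lgals3bp for activin B in sh1/2 cells (-0.43, adjusted p = 0.022), beside the values for Uba7, Oas1a and Lgals3bp given above.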

How the data were processed

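Per the labels' protocols, RNA was isolated by Trizol, and a TruSeq stranded mRNA kit was used on 500 ng of it. The authors deposited raw read counts per gene; the submitters' processing notes name bcl2fastq 2.17, cutadapt 1.4.2, HISAT2, featureCounts 1.4.4, edgeR and mm10. Strand and multimapping settings are not given in the sources used here. The 30 columns equalled the single-library count files. Counts were tested with edgeR 4.0.16 in R 4.3.3 (low-count filter at 10 counts, TMM scaling, 10 group means over 30 libraries, quasi-likelihood test). CPM are TMM-scaled, and RPKM divide them by exon length. GC content is that of a gene's longest GENCODE vM21 transcript. With 18904884 to 34740789 counts per library, members with few reads are imprecise. DESeq2 1.42.0 was an alternative. The script was tested on simulated counts. Members and lists were chosen with earlier results of these data known. Library values are printed for up to 3 members per role with the smallest p in the batch 1 hairpin comparisons, and for up to 8 pathway genes likewise; members past the threshold are named beside them, and 1 of the 8 pathway genes is not reported here. Deviations of same-numbered libraries from their group means were correlated between treatments: in ALK7, ALK7-DN and sh1/2 cells all pairs exceeded 0.1, in control and sh2 cells not all did (range over 15 pairs 0.0794 to 0.329).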

Additional observations from a re-analysis of the deposited data

Results flagged for a closer look

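The response to activin B differed between sh1/2 and control cells in 8 members by the interaction test of edgeR. The differences (sh1/2 minus control, log2) were -0.51 for Ifih1, -0.41 for Ddx58, -0.33 for Parp9, -0.47 for Parp14, -0.44 for Eif2ak2, -0.39 for Herc6, -0.82 for Samd9l and 0.73 for Tap1. Adjusted p ran from 0.0171 (Tap1) to 0.0482 (Eif2ak2). Without the 3 GC-shifted libraries the differences were -0.28, -0.19, -0.07, -0.15, -0.12, -0.04, -0.26 and 0.47 in the same order, and none passed by edgeR (6 of the 44 members had an unadjusted p under 0.05). That fit holds a single sh1/2 library with DOX alone, and the libraries left out were picked by their GC slope. Each of the 8 calls also ended when only control DOX replicate 1, only control activin B replicate 2 or only sh1/2 DOX replicate 3 was left out. Parp14 went from 16.7, 16.8 and 19.3 to 19.7, 24.2 and 21.6 CPM in control and from 11, 8.65 and 11 to 9.78, 8.6 and 8.98 CPM in sh1/2 cells. Ddx58 went from 20.4, 20.9 and 20.6 to 16.9, 21.7 and 19 CPM in control and from 14.7, 13.3 and 15.4 to 10.6, 10.1 and 9.62 CPM in sh1/2 cells.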

How the results depend on the processing

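Of 127 member calls, another scaling in edgeR kept 127, DESeq2 kept 123, a GC correction 110, no low-count filter 99 and a fit of the compared groups alone 75; the fits without the 3 GC-shifted libraries kept 44 of the 78 they could change. The causes were not tested. The counts of called members that moved by over 1.5 times were as follows. In sh1/2 against control cells with DOX alone (17 called), the compared groups alone gave 10. In sh2 against control cells, the GC correction gave 9 with DOX alone (4 called) and 12 with activin B (6 called), with the replicate block added 10 and 13, and the compared groups alone gave 2 with activin B. For cells labelled ALK7 against control cells, the GC correction gave 8 with DOX alone and 7 with activin B (3 called in each), with the replicate block added 11 and 10, and the compared groups alone 0 and 0. For the activin B response, the compared groups alone gave 8 in control cells (13 called), and both they and the fit without the 3 libraries gave 4 in sh1/2 cells (13 called). The GC correction gave 10 in cells labelled ALK7-DN (6 called), and with the replicate block 14 there, 17 in cells labelled ALK7 (10 called) and 21 in sh2 cells (13 called). For the difference in response between sh1/2 and control cells (8 called), no low-count filter gave 3, the GC correction 3, the replicate block 18, and both the fit without the 3 libraries and that of the compared groups alone 0; for that between cells labelled ALK7 and control cells (0 called), the replicate block gave 1 and with GC correction 2. The replicate block changed no other count by over 1.5 times and kept every gene call. Among the activin B libraries of its own line, each DOX library correlated best with the same-numbered one (15 of 15), as a hint from the data. Same-numbered libraries of different lines under the same treatment correlated from -0.161 to 0.334, over 0.1 in 33 of 60 pairs. With activin B in sh1/2 cells, Adar reversed under the GC correction (-0.0060, and -0.0058 with the replicate block), as did B2m (0.0046 and 0.013).

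Leaving out 1 library at a time gave 14 to 24 called members for sh1/2 against control cells with DOX alone and 12 to 18 with activin B, 3 to 5 and 3 to 6 for sh2, 0 to 2 and 1 to 4 for cells labelled ALK7, 0 to 0 for cells labelled ALK7-DN, and 8 to 12 for sh1/2 against sh2. For the activin B response it gave 8 to 12 in control cells, 7 to 9 in cells labelled ALK7, 5 to 8 in cells labelled ALK7-DN, 5 to 11 in sh2 and 8 to 25 in sh1/2 cells, and 0 to 21 for the difference between sh1/2 and control cells. Depth limits members with few reads, such as Zbp1 (3 to 20 reads per library), Ifit1 (17 to 50) and Mx1 (13 to 110).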
